A study of Mus musculus with 9 samples.

Results

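The connexin genes encode the subunits of gap junction channels, and 7 of them were followed through development of the mouse cornea: Gja1, Gja3, Gja4, Gjb2, Gjb5, Gjb6 and Gjc1. They were chosen by symbol and matched by Entrez Gene identifier, and they are 7 of the 19369 genes with an expression estimate in at least 1 sample and 7 of the 20 connexin genes among these. RNA-Seq was performed on wild-type C57BL/6 embryos at 3 stages with 3 samples each. The E10.5 samples were periocular neural crest (pNC), the mesenchyme around the optic cup, freed with dispase from the optic cup and from the lens vesicle with its ectoderm, and the E14.5 and E16.5 samples were dissected corneas. The labels name no transgene and no treatment. Each sample was a separate pool of tissue from several eyes, so the spread between samples is a spread between pools. Since tissue and age changed together, stage and tissue cannot be told apart in these data.

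Connexins assemble into a hemichannel in the plasma membrane of a cell, and hemichannels of neighboring cells dock to form a channel that passes ions, second messengers and small metabolites. Connexins fall into alpha (Gja), beta (Gjb) and gamma (Gjc) groups by sequence, and which of them can share a channel depends on the group. In the cornea, gap junctions couple the basal cells of the epithelium, the keratocytes of the stroma and the cells of the endothelium, and Gja1 is the connexin best known in all of these layers. Gjb2 and Gjb6 are best known from stratified epithelia and the inner ear, Gja4 from vascular endothelium, Gja3 from lens fibers, and Gjc1 from the heart, smooth muscle and early embryo.

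The libraries were of similar depth, with totals of 8745161 to 9069023 expected counts and 16967 to 17275 genes listed per sample. Corneal markers rose with the corneal stages: the 10 epithelial markers summed to 41.1 to 56.4 fragments per kilobase of transcript, scaled to the library (FPKM), in the pNC, 689 to 2172 in E14.5 corneas and 5310 to 7677 in E16.5 corneas. The 6 stromal markers summed to 111 to 174, 2339 to 5802 and 8872 to 10791 FPKM. The E14.5 sample 1 stood apart from its stage with the highest epithelial and stromal sums and the lowest sum of 8 vascular endothelial markers, 58.7 FPKM beside 97.4 and 104. The pNC also held RNA of other cells, with 141 to 226 FPKM of vascular endothelial markers, 48.9 to 63.0 of 7 optic cup markers and 5044 to 7885 of 6 red blood cell markers. Lens markers were low throughout, at a summed 1.29 to 6.79 FPKM for 9 genes, with Cryba2 listed in no sample. In bulk tissue, fewer cells of a type and less RNA per cell cannot be told apart, and this holds for every level below.

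The members lie on 4 chromosomes of the GRCm38 assembly. Gja1 is on chr10:56377300-56390419, Gjc1 on chr11:102799477-102819686, and Gja4 on chr4:127311420-127314039. The genes Gja3 at chr14:57034460-57058030, Gjb2 at chr14:57098602-57104702 and Gjb6 at chr14:57123301-57133611 form a cluster of 3, in which 18.6 kb separate Gjb2 from Gjb6 and 40.6 kb separate Gja3 from Gjb2. Gjb5 is at chr4:127354809-127358164, on the chromosome of Gja4. No other annotated protein-coding gene lies between Gja3 and Gjb2 or between Gjb2 and Gjb6. Each member has its whole coding sequence in 1 exon, of 678 bases in Gjb2 to 1251 bases in Gja3, and no exon of another gene overlaps a member. The coding sequences of Gjb2 and Gjb6 were 75.8% identical over 678 aligned bases, the highest of the 21 pairs of members, and their longest identical run was 20 bases. The other pairs were 57.2% to 65.6% identical. The estimated counts were whole numbers in every sample for 6 members, within a tolerance of 0.001, and were fractional for Gjc1.

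RefSeq gave 250 bases before the start of transcription for 6 of the 7 members. The sequences of the 3 members that were higher in the cornea than in the pNC are printed because Gjb2 and Gjb6 are neighbors that differed widely in level, and Gja1 was the most abundant member. They run 5′ to 3′ on the strand of the gene and end at the base before the annotated start, at chr10:56377050-56377299 for Gja1 on the plus strand and at chr14:57104703-57104952 for Gjb2 and chr14:57133612-57133861 for Gjb6 on the minus strand. Capitals mark matches on either strand to the AP-1 site, the GC box, the TATA box or the CCAAT box.
Gja1: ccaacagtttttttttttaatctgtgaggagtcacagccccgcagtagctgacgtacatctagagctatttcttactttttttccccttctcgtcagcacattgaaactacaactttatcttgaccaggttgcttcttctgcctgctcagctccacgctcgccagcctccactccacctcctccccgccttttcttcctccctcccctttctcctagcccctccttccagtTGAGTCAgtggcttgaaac
Gjb2: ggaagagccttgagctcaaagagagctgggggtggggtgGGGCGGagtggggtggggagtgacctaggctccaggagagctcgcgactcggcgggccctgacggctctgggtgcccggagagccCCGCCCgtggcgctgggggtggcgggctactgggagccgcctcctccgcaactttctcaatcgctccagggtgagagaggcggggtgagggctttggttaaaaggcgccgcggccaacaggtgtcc
Gjb6: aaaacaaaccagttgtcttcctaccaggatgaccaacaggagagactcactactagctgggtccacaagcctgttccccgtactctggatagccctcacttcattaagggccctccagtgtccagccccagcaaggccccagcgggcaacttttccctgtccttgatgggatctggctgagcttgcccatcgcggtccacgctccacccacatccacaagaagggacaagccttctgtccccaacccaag
The Gja1 sequence held 1 match to the AP-1 site with the letters TGANTCA, which began 19 bases before the start, and such a match was found in 6.75% of 32851 mouse promoter windows of the same length. The bases just after the Gja1 start were in no Gja1 transcript of a second annotation, GENCODE, so this start and the distance to it are uncertain. For Gjb2 and Gjb6 the bases after the start were in a GENCODE transcript. The Gjb2 sequence held 2 matches to the GC box with the letters GGGCGG, which began 211 and 126 bases before the start and are read on opposite strands, and 32.7% of the windows held at least 1. None of the 4 motifs was in the Gjb6 sequence. The TATA box was searched as TATAAA and found in 12.4% of the windows. The pentamer CCAAT was in 33.8% of them. The G+C content was 69.2% for Gjb2 and 56.8% for Gjb6, against a median of 52.4% over all windows. These matches are descriptions of the letters in a window and not of binding.

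In FPKM, which is scaled to transcript length so that genes can be set side by side, connexin expression was mostly Gja1 and Gjc1 in the pNC and Gja1, Gjb2 and Gjc1 in the cornea. Gja1, Gjb2 and Gjc1 together made up 84.8% ± 1.37 (SD, n = 3) of the summed FPKM of all connexin genes in the pNC, 89.6% ± 1.64 in E14.5 corneas and 89.9% ± 0.843 at E16.5. Within that sum the makeup differed between stages. In the pNC most of the sum was Gja1 (47.0% ± 0.669) and Gjc1 (36.5% ± 0.659), and Gjb2 held 1.27% ± 0.546. After that Gja1 held 69.4% ± 1.20 in E14.5 corneas and 65.8% ± 0.665 at E16.5, while Gjc1 held 8.83% ± 1.41 and 6.37% ± 0.732. The share of Gjb2 was 11.4% ± 0.941 in E14.5 corneas and 17.7% ± 1.75 at E16.5. The beta connexins together had 3.42% ± 1.06, 13.8% ± 2.02 and 22.4% ± 2.25 at the 3 stages, with no overlap between the samples of any pair of stages. The sum itself was 154 ± 6.79 FPKM in the pNC, 312 ± 2.72 in E14.5 corneas and 274 ± 15.6 at E16.5. These shares are descriptions, and no test was run on them.

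**Figure D1:**
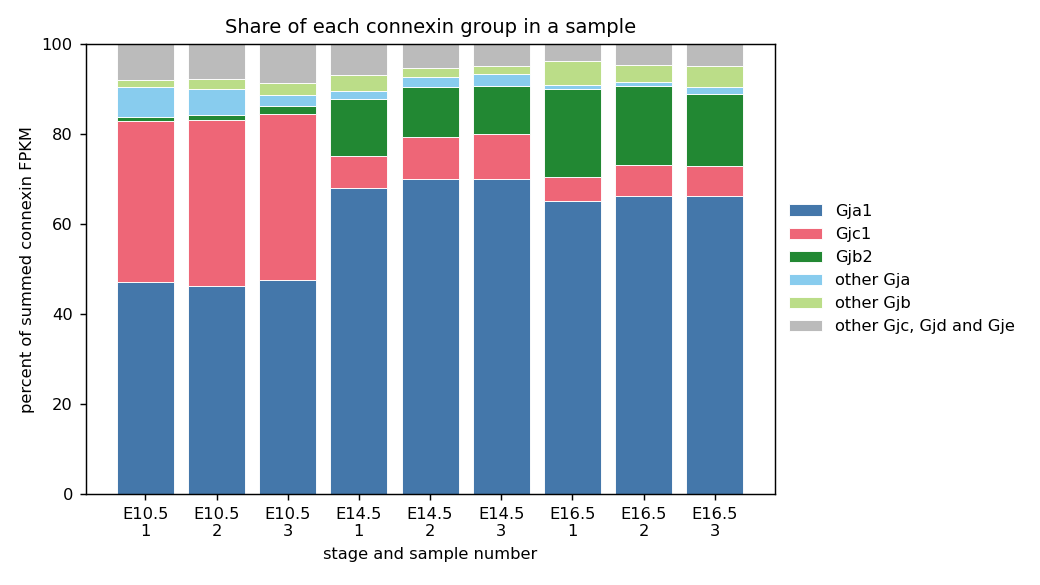
Stacked bars give the percent of the summed connexin FPKM held by Gja1, Gjc1, Gjb2 and the other connexin genes, by group, in each of the 9 samples (x axis: stage and sample number). The Gjc1 band is wide in the 3 E10.5 samples (mean 36.5%) and narrow in the corneas (8.83% and 6.37%), where the Gjb2 band opens.

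Of the 7 members, 6 had enough counts to be tested and Gja3 did not. A gene was called when its Benjamini-Hochberg adjusted p in edgeR's quasi-likelihood test was under 0.05 over the 14771 genes tested and its absolute log2 fold change was at least 1. From E10.5 to E14.5, Gja1 and Gjb2 rose and Gjc1 fell, that is 2 members higher and 1 lower, where 13.6% of all genes tested were called higher and 7.97% lower. From E10.5 to E16.5, Gja1, Gjb2 and Gjb6 rose and Gjc1 fell, with backgrounds of 19.4% higher and 15.4% lower. Between E14.5 and E16.5, Gjb6 was the 1 member called, and it was higher at E16.5, with a background of 6.26% higher and 5.47% lower. With no fold minimum, Gjb2 and Gjb6 were higher and Gjc1 lower over this interval, where 17.5% of all genes tested passed in each direction. By the NOISeq criterion of the study's methods, a probability of at least 0.8 with the same fold minimum, no member passed between the corneal stages, where 2.02% of genes were higher and 2.12% lower, while by edgeR at an unadjusted p under 0.05 and with no fold minimum, 2 members were higher and 2 lower, beside 21.9% and 23% of all genes tested. The median log2 fold change of the 6 tested members was 0.50, 1.05 and 0.25 in these comparisons, and that of all genes tested was within 0.03 of 0 on the log2 scale in each. The comparisons of E14.5 and E16.5 with E10.5 share the E10.5 samples and are not independent.

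**Figure D2:**
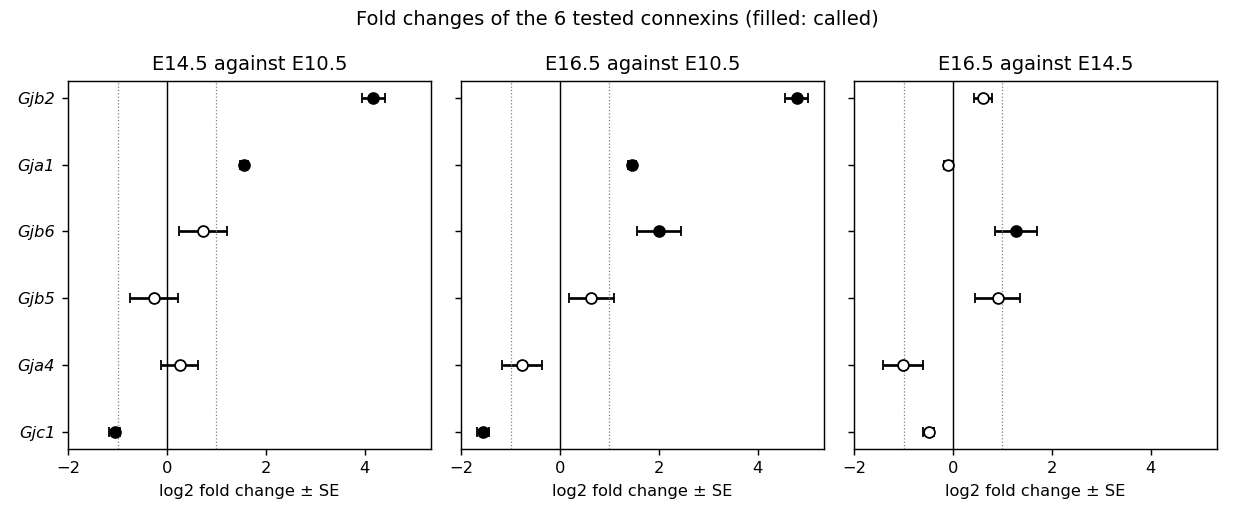
Points give the log2 fold change, later against earlier stage, of the 6 tested members in the 3 comparisons of stages, with bars of 1 SE from edgeR; filled points passed the test and dotted lines mark a log2 fold change of 1 either way. Gjb2 lies at 4.18 and 4.79 against E10.5 with small errors, and the low-count genes Gjb5, Gjb6 and Gja4 have the widest bars.

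Gja1 (Cx43), which joins cells of nearly every tissue including the corneal epithelium and stroma, was the most abundant connexin at all 3 stages. Its FPKM was 74.5, 67.6 and 75.2 in the E10.5 samples, 214, 217 and 218 in E14.5 corneas, and 189.8, 174 and 177 at E16.5. The 3 stages did not overlap in FPKM, and the samples of a stage lay close together. Gja1 was 2.96-fold higher in E14.5 corneas than in the pNC (log2 fold change 1.57 ± 0.08 SE, adjusted p = 2.8e-07) and 2.76-fold higher at E16.5 (1.46 ± 0.08, adjusted p = 2e-07). From E14.5 to E16.5 the mean FPKM was 217 ± 1.91 and then 180.3 ± 8.39, yet in the edgeR fit the change was -0.10 ± 0.08 on the log2 scale with an adjusted p of 0.36. That fit scales samples by trimmed means, with factors of 0.918 to 0.940 at E16.5 and above 1 in the other samples. Scaled by library totals alone, the same change was -0.27 with an adjusted p of 0.023, so whether Gja1 was lower at E16.5 depended on the scaling, and under neither scaling did it reach the fold minimum. The summed epithelial and stromal markers rose from E10.5 to E14.5, as Gja1 did. They rose again to E16.5, where Gja1 did not, and their part in the Gja1 values was not tested. Library totals moved the median log2 fold change of all genes to -0.15 for E16.5 against E10.5 and to -0.19 for E16.5 against E14.5.

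**Figure D3:**
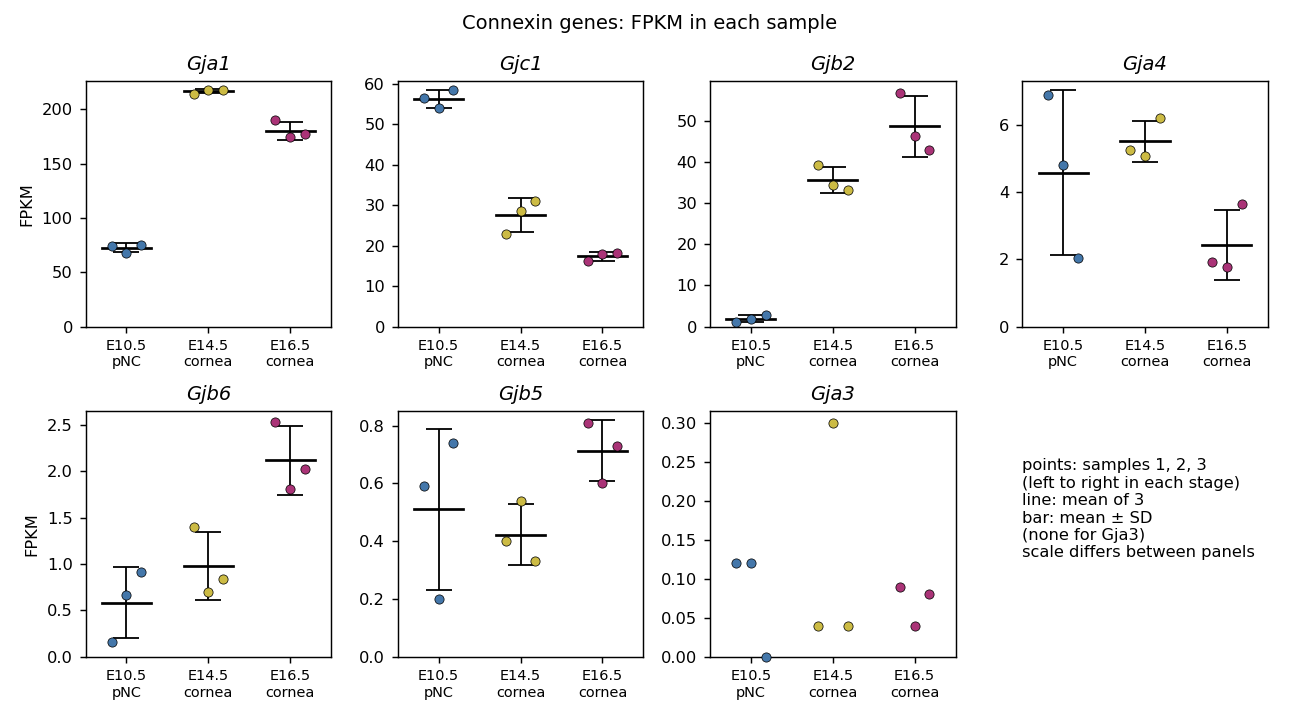
Each panel gives the FPKM (y axis, scale set per gene) of 1 member in the 3 samples of each stage, with the mean and SD of 3 samples except for Gja3. Gja1 and Gjb2 sit higher in every corneal sample than in any pNC sample, Gjc1 sits lower, and Gja3 stays at 0.30 FPKM or less.

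Gja4 (Cx37), a connexin of endothelial cells in arteries and of the oocyte, did not pass the test in any comparison of stages. Its FPKM was 6.90, 4.80 and 2.03 in the pNC, 5.24, 5.08 and 6.21 in E14.5 corneas and 1.91, 1.76 and 3.63 in E16.5 corneas. The E10.5 samples spread widely and overlapped both other stages, while E14.5 and E16.5 did not overlap each other. The log2 change from E14.5 to E16.5 was -1.02 ± 0.40 (adjusted p = 0.073, unadjusted p = 0.029), that from E10.5 to E14.5 was 0.25 ± 0.38 (adjusted p = 0.59), and that from E10.5 to E16.5 was -0.76 ± 0.41 (adjusted p = 0.12). Leaving out E10.5 sample 3 gave a log2 change of -1.02 from E14.5 to E16.5 with an adjusted p of 0.022 and of -1.12 from E10.5 to E16.5 with an adjusted p of 0.0099, and it turned the change from E10.5 to E14.5 to -0.11. Leaving out E16.5 sample 3 gave -1.42 (adjusted p = 0.042) and -1.16 (adjusted p = 0.042) for the E16.5 comparisons with E14.5 and E10.5. The other fits that left out 1 sample called neither: the change from E14.5 to E16.5 was between -0.84 and -1.09 (adjusted p of 0.053 to 0.21), and that from E10.5 to E16.5 between -0.34, without E10.5 sample 1, and -0.76 (adjusted p of 0.098 to 0.48).

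Vascular endothelial markers were followed beside Gja4. From E10.5 to E14.5, 7 of the 8 markers were called lower, and Gja4 was not. In E14.5 sample 1 the marker sum was the lowest of its stage, at 58.7 FPKM beside 97.4 and 104. Gja4 in that sample was 5.24 FPKM, beside 5.08 and 6.21. Of the 8 markers, 7 were called lower in E16.5 corneas than in the pNC and than in E14.5 corneas, Kdr being the exception, and the sum of all 8 was 141 to 226 in the pNC, 58.7 to 104 in E14.5 corneas and 23.8 to 39.0 in E16.5 corneas; their part in the Gja4 values was not tested. Kdr alone gave 21.7 to 29.3 FPKM of the E16.5 sums. E10.5 sample 3, with the lowest Gja4 of its stage, also had the lowest Cdh5, the cadherin of endothelial cells, at 20.3 FPKM beside 38.8 and 36.6. This was not particular to endothelium. The same sample had the lowest stromal (111), pericyte and smooth muscle (86.4), red blood cell (5044), optic cup (48.9), lens (1.29) and leukocyte (21.0) sums of its stage. Its epithelial, Schwann cell and skin marker sums were not the lowest. As a percent of its highest sample, Gja4 was 73.6% to 90.0% in E14.5 corneas and 25.5% to 52.6% at E16.5. On the same scale Kdr was 55.9% to 100% and 55.8% to 75.2%, and the other 7 markers were 6.74% to 47.0% and 0.438% to 7.43%. Gja5, another connexin of arterial endothelium and no member of the set, was 2.84, 2.98 and 1.74 FPKM in the pNC, 0.25, 1.92 and 1.80 in E14.5 corneas, and 0, 0.25 and 0.18 at E16.5, and it fell from E10.5 to E16.5 by 3.97 ± 0.78 on the log2 scale (adjusted p = 0.00089). Its low E14.5 value was in sample 1, where Cdh5 was also lowest of its stage at 8.23 FPKM beside 16.7 and 15.8.

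**Figure D4:**
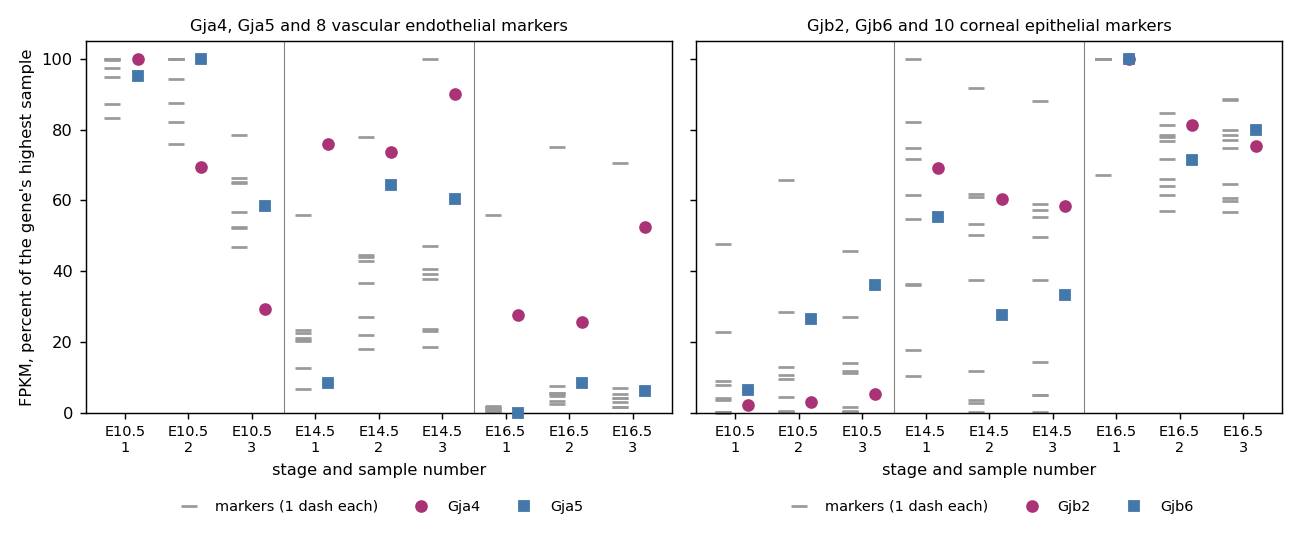
FPKM in each of the 9 samples (x axis) is given as a percent of the gene's highest sample (y axis), on the left for Gja4, Gja5 and the 8 vascular endothelial markers and on the right for Gjb2, Gjb6 and the 10 corneal epithelial markers, with 1 dash for each marker. In E14.5 corneas Gja4 is at 73.6% or more, beside 1 marker (Kdr) at 55.9% to 100% and 7 at 47.0% or less, and Gjb2 lies within the wide span of the epithelial markers.

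Gja3 (Cx46), a connexin of lens fibers, was at the limit of detection. It was listed at 0.12, 0.12 and 0 FPKM in the pNC, 0.04, 0.30 and 0.04 in E14.5 corneas, and 0.09, 0.04 and 0.08 at E16.5, which were 0 to 7 expected counts per sample. The upper 95% counting limit of a count of 0 is 3.69 counts. Gja3 had too few counts to be tested, so no fold change is given. The 9 lens markers summed to at most 6.79 FPKM.

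Gjb2 (Cx26), a connexin of stratified and glandular epithelia that is mutated in hereditary deafness, changed most among the members between the pNC and either corneal stage. It was 1.20, 1.74 and 2.92 FPKM in the pNC, 39.4, 34.4 and 33.3 in E14.5 corneas and 57.0, 46.3 and 42.9 in E16.5 corneas. No stage overlapped another, and every corneal sample was more than 10 times the highest pNC sample. The rise was 18.1-fold at E14.5 (log2 fold change 4.18 ± 0.23, adjusted p = 3.1e-07) and 27.6-fold at E16.5 (4.79 ± 0.23, adjusted p = 8e-08). From E14.5 to E16.5 Gjb2 was 1.53-fold higher (0.61 ± 0.18, adjusted p = 0.022), which was under the fold minimum. That change was 0.45 with library totals (adjusted p = 0.063), and its adjusted p was 0.19 and 0.094 in limma on log2(FPKM + 0.1) and log2(FPKM + 1) and 0.053 to 0.092 without E14.5 sample 2 or 3 or E16.5 sample 1 or 2. Gja1 exceeded Gjb2 by 25.8- to 62.1-fold in the pNC, by 5.44- to 6.54-fold in E14.5 corneas and by 3.33- to 4.12-fold at E16.5, in FPKM.

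Of the 10 corneal epithelial markers, 9 were called higher against E10.5 at each corneal stage, Cldn7 being the exception. The part of these markers in the values of Gjb2 and Gjb6 was not tested. As a percent of its highest sample, Cldn7 was 45.7% to 65.7% in the pNC and 54.6% to 61.0% in E14.5 corneas. Epcam was 22.9% to 28.5% in the pNC on this scale. The 10 markers differed widely among themselves. In E14.5 corneas, as a percent of its highest sample, Gjb2 was 58.5% to 69.1%, beside 59.0% to 71.8% for Trp63, a transcription factor of basal epithelial cells, 53.3% to 74.9% for the splicing factor Esrp1 and 49.7% to 82.2% for the epithelial cadherin Cdh1. The keratins were lower on this scale, at 11.9% to 36.1% for Krt5 of basal cells and 0.0626% to 10.3% for Krt12 of differentiated corneal epithelium, and the adhesion molecule Epcam was higher, at 88.1% to 100%. The highest E14.5 sample exceeded the lowest by 1.18-fold for Gjb2, 1.13-fold for Epcam, 1.22-fold for Trp63, 1.41-fold for Esrp1, 3.04-fold for Krt5 and 164-fold for Krt12.

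Gjb6 (Cx30), the neighbor of Gjb2 and its partner in the cochlea and epidermis, was expressed at a much lower level. Its FPKM was 0.16, 0.67 and 0.91 in the pNC, 1.40, 0.70 and 0.84 in E14.5 corneas and 2.53, 1.81 and 2.02 in E16.5 corneas. The E10.5 and E14.5 samples overlapped, and every E16.5 sample was above all others. Gjb6 was 4.02-fold higher in E16.5 corneas than in the pNC (log2 fold change 2.01 ± 0.45, adjusted p = 0.0022) and 2.41-fold higher than at E14.5 (1.27 ± 0.42, adjusted p = 0.038), and from E10.5 to E14.5 its change of 0.73 ± 0.49 did not pass (adjusted p = 0.22). Without E14.5 sample 1 these last changes were 1.61 (adjusted p = 0.011) and 0.40 (adjusted p = 0.54). The call against E14.5 was lost in 6 of the 9 fits that left out 1 sample, with adjusted p of 0.055 to 0.13, namely without E10.5 sample 2, E14.5 sample 2 or 3, or any of the 3 E16.5 samples. It was also lost with library totals (adjusted p = 0.056) and in limma on log2(FPKM + 0.1) (adjusted p = 0.097), and by NOISeq neither call was made. In FPKM, Gjb2 exceeded Gjb6 by 2.60- to 7.50-fold in the pNC, 28.2- to 49.2-fold in E14.5 corneas and 21.3- to 25.6-fold at E16.5, so the neighbors were closest in level in the pNC.

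Gjb5 (Cx31.1), a connexin of the epidermis and trophoblast, was at 3 to 12 expected counts per sample. It was 0.59, 0.20 and 0.74 FPKM in the pNC, 0.40, 0.54 and 0.33 in E14.5 corneas, and 0.81, 0.60 and 0.73 at E16.5. The E14.5 and E16.5 samples did not overlap, and both overlapped E10.5. None of the comparisons passed, with log2 changes of -0.27 ± 0.49, 0.64 ± 0.45 and 0.90 ± 0.46 for E14.5 against E10.5, E16.5 against E10.5 and E16.5 against E14.5 (adjusted p of 0.66, 0.23 and 0.16), and a change of up to 1.83 on the log2 scale is within 2 SE in the last of these.

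Gjc1 (Cx45), the connexin of the early heart, smooth muscle and embryonic mesenchyme, was the member that fell. It was 56.4, 53.9 and 58.5 FPKM in the pNC, 22.9, 28.6 and 31.1 in E14.5 corneas, and 16.1, 17.8 and 18.2 at E16.5. The 3 stages did not overlap. Gjc1 was 2.09-fold lower in E14.5 corneas than in the pNC (log2 fold change -1.06 ± 0.11, adjusted p = 2.5e-05) and 2.94-fold lower at E16.5 (-1.55 ± 0.12, adjusted p = 8.8e-07). From E14.5 to E16.5 it changed by -0.49 ± 0.12 (adjusted p = 0.0081), under the fold minimum. The first call rests on the fold minimum and on E14.5 sample 1, without which the log2 change was -0.94 with an adjusted p of 4.1e-06. The summed FPKM of 8 pericyte and smooth muscle markers, 86.4 to 126 in the pNC, overlapped that of both corneal stages, 118 to 149 and 100.4 to 111, and their part in the Gjc1 values was not tested. These markers did not all move together. Of 7 tested, 2 were called higher and 1 lower in E14.5 corneas than in the pNC, against backgrounds of 13.6% and 7.97%. At E16.5 it was 1 higher and 1 lower, against 19.4% and 15.4%. The ratio of Gja1 to Gjc1 in FPKM was 1.26 to 1.32 in the pNC, 7.0 to 9.35 in E14.5 corneas and 9.73 to 11.8 at E16.5.

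The order of the members by mean FPKM was Gja1, Gjc1, Gja4, Gjb2, Gjb6, Gjb5 and Gja3 in the pNC and Gja1, Gjb2, Gjc1, Gja4, Gjb6, Gjb5 and Gja3 at both corneal stages. The ranges of neighbors in this order overlapped for Gja4 and Gjb2 and for Gjb6 and Gjb5 in the pNC, and for Gja4 and Gjb6 at E16.5. Of the other 13 connexin genes, Gjc3, a connexin of myelinating glia, and Gje1 were at 6.13 ± 0.393 and 6.19 ± 0.861 FPKM in the pNC, 9.09 ± 2.85 and 8.47 ± 0.559 in E14.5 corneas and 6.66 ± 0.471 and 5.08 ± 0.888 at E16.5, and neither was called. Gja6, Gja10, Gjb1, Gjd2, Gjd3 and Gjd4 had 7 counts or fewer in every sample. Pannexins form channels of a single membrane and are related to connexins in shape and not in sequence. Panx1 was 21.8 ± 1.36, 15.3 ± 0.358 and 10.2 ± 0.858 FPKM at the 3 stages, with log2 changes of -0.52 ± 0.10 and -0.95 ± 0.10 against E10.5 (adjusted p = 0.00093 and 8.3e-06) that were under the fold minimum. Panx2 was at 1.39 FPKM or less and was called higher at E14.5 (adjusted p = 0.010) and E16.5 (adjusted p = 0.048) than at E10.5, and Panx3 had at most 0.18 FPKM.

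Proteins that hold connexins in place, move them or mark them for removal were followed as a list of 25 genes, all of them tested. Against E10.5, 4 were higher in E14.5 corneas and 21 were not called, while E16.5 corneas had 7 higher and 3 lower; from E14.5 to E16.5, 3 were higher and 1 lower. That is 16% higher and 0% lower in E14.5 corneas, against backgrounds of 13.6% and 7.97%. At E16.5 it is 28% higher and 12% lower against 19.4% and 15.4%. Between the corneal stages it is 12% higher and 4% lower against 6.26% and 5.47%. The shares thus lay near those of all genes or differed from them by a few genes. The median log2 fold change of the list was 0.05, -0.08 and 0.00 in these comparisons, beside 0.01, 0.00 and -0.02 over all genes tested. Ccn3, a matricellular protein that binds Gja1, was 0.860 ± 0.0458 FPKM in the pNC, 14.8 ± 4.36 in E14.5 corneas and 12.4 ± 1.45 at E16.5 (log2 fold changes 4.07 ± 0.24 and 3.98 ± 0.24, adjusted p = 4.5e-07 and 2.6e-07). Tjp3, a scaffold of the same family as the Gja1 partner Tjp1, rose from 0.867 ± 0.316 FPKM to 12.2 ± 2.77 at E16.5 (3.95 ± 0.31, adjusted p = 1.3e-06). Of the classical cadherins, Cdh1 rose from 7.25 ± 0.880 to 63.6 ± 6.62 FPKM at E16.5 (3.28 ± 0.20, adjusted p = 2.5e-07) and Cdh2 fell from 27.7 ± 5.04 to 5.10 ± 1.05 FPKM (-2.29 ± 0.20, adjusted p = 2.3e-06). Dbn1, an actin-binding partner of Gja1, fell by 1.55 ± 0.14 on the log2 scale from E10.5 to E16.5 (adjusted p = 3.8e-06), and Ywhaq, the 14-3-3 protein that binds phosphorylated Gja1, fell by 1.24 ± 0.08 (adjusted p = 5.3e-07). Cav1, a membrane protein found with Gja1 in lipid rafts, rose from 4.43 ± 2.44 at E14.5 to 19.5 ± 4.25 FPKM at E16.5 (adjusted p = 0.00069), and Ocln, a tight junction protein, rose from 1.87 ± 0.928 to 5.60 ± 0.465 (adjusted p = 0.0013).

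Genes of other epithelial junctions were followed beside the connexins. Of 15 desmosome, claudin and related genes, 13 were higher in E14.5 corneas and 14 at E16.5 than at E10.5, 11 were higher at E16.5 than in E14.5 corneas, and the rest were not called, where 13.6%, 19.4% and 6.26% of all genes tested were higher. Without E14.5 sample 1 the counts were 12, 14 and 11. Their median log2 fold changes were 3.53, 5.20 and 1.55. Pkp1, a desmosomal plaque protein, rose from 7.06 ± 9.06 FPKM at E14.5 to 72.9 ± 16.1 at E16.5 (3.54 ± 0.69, adjusted p = 0.0035), and Dsg3, a desmosomal cadherin, rose by 3.97 ± 0.67 on the log2 scale (adjusted p = 0.0018). Without E14.5 sample 1 these changes were 5.46 and 6.49. Over the same interval Gjb2 changed by 0.61 and Gjb6 by 1.27 on the log2 scale. Dsc3, another desmosomal cadherin, was 0.183 ± 0.0115 FPKM in the pNC and 31.4 ± 15.0 at E14.5 (7.41 ± 0.50, adjusted p = 1.1e-06). Dsg1a was also called in all 3 comparisons, and since near-identical copies of this gene lie beside it, its level is uncertain.

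The genes whose FPKM ran most like that of each member were found by Pearson's correlation of log2(FPKM + 1) over the 9 samples, among genes with a mean of at least 5 FPKM at some stage. For Gja1 they were Glrb, Slc26a2 and Fndc1, each with r = 0.997, and for Gjb2 they were Grhl2 (r = 0.999), Ap1m2 (r = 0.998) and Wnt4 (r = 0.996). Grhl2, a transcription factor of epithelia, was 2.20 ± 0.677, 16.6 ± 1.71 and 19.7 ± 1.57 FPKM at the 3 stages. For Gjc1 they were Uck2 and Mybbp1a (r = 0.998) and Lrwd1 (r = 0.997), and for Gjb6 H2-T23 (r = 0.979), Dnase1l2 (r = 0.976) and Cert1 (r = 0.974). The samples of a stage share that stage, and correlations above 0.95 were common: 418 of 10941 genes had one with Gja1, 802 with Gjb2, 1730 with Gjc1 and 17 of 10942 with Gjb6. No gene reached 0.95 with Gja3, Gja4 or Gjb5, and their closest were G0s2 (r = 0.864), Pik3r4 (r = 0.838) and Fibp (r = 0.813) for Gja3, Slc35e1 (r = 0.939), Prr12 (r = 0.934) and Trrap (r = 0.931) for Gja4, and Anxa7 (r = 0.830), Rmnd5a (r = 0.811) and Plag1 (r = 0.805) for Gjb5.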

How the data were processed

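RNA-Seq libraries of pNC and corneal tissue were mapped by the authors to reference genes with Bowtie2 and to the mouse GRCm38 assembly with HISAT. Reads were quantified with RSEM, and tool versions are not given in the sources used here. The deposited expected counts are RSEM's estimates of fragments per gene and were rounded to whole numbers before testing. The deposited FPKM values were computed by the authors as fragments per kilobase of transcript scaled to the mapped total. Genes that a sample does not list were set to 0 in it. Strandedness of the counting is not given in the sources used here. Of 19369 genes, 19312 had a RefSeq symbol (GRCm38.p6), which supplied coordinates and promoter sequences.

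Stages were taken from the sample labels. Counts were fitted in edgeR 4.0.16 (R 4.3.3) with TMM scaling, genes kept by filterByExpr, and a quasi-likelihood F test in 1 model of the 9 samples with pairs of stages as contrasts. SE is the log2 fold change divided by the root of F. NOISeq probabilities were recomputed from FPKM with zeros set to 0.01. Alternatives were RLE or library-total scaling, DESeq2 1.42.0, limma 3.58.1 on log2(FPKM + 1) and log2(FPKM + 0.1), NOISeq, other count filters, no fold minimum, only the 6 samples compared, each sample left out, and the replicate number as a block. The edgeR and DESeq2 steps were tested on simulated data. Counting limits cover counting error only. No 2 samples of a stage agreed within sampling noise (chi-square per degree of freedom of 3.04 to 27.9).

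The members and gene lists were chosen with earlier results of these data known. Named besides the members were the other connexin and pannexin genes (some are not reported here), up to 3 called genes per direction, list and comparison by absolute log2 fold change with a mean of at least 5 FPKM at some stage, and the 3 most correlated genes of each member. Adjusted p-values are edgeR's unless another tool is named.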

Additional observations from a re-analysis of the deposited data

How the results depend on the processing

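Of the recomputed log2 fold changes of single members, 312 kept their direction and their side of the threshold, 13 no longer passed, 7 newly passed and 2 changed sign. Gja1 and Gjb2 stayed higher in both corneal stages than in the pNC, and Gjc1 stayed lower at E16.5, under every alternative run. The count of members lower in E14.5 corneas than in the pNC ranged from 0 to 1 when 1 sample was left out, being 0 without E14.5 sample 1, and that for E16.5 corneas ranged from 1 to 2, Gja4 joining without E10.5 sample 3 or E16.5 sample 3. For E16.5 against E14.5 corneas, the count of higher members was 0 with library totals, with limma at either pseudocount and by NOISeq, and 2 with no fold minimum, and it ranged from 0 to 1 when 1 sample was left out, being 0 without E10.5 sample 2, E14.5 sample 2 or 3, or any E16.5 sample; the cause was not tested. The count of lower members was 1 with library totals, with limma on log2(FPKM + 0.1), with only the 6 samples compared (Gja4 in each) and with no fold minimum (Gjc1), and it ranged from 0 to 1 when 1 sample was left out, being 1 without E10.5 sample 3 or E16.5 sample 3. By NOISeq, Gjb6 for E16.5 against E10.5 had a log2 ratio of 1.87 and a probability of 0.668 and did not pass.

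With 1 sample left out, the log2 fold change of E14.5 against E10.5 ranged from -0.11 to 0.68 for Gja4 and from -0.66 to 0.085 for Gjb5, the sign changing without E10.5 sample 3 in both. Summed over the 7 members alone, Gja1 held 53.1%, 75.5% and 71.6% at the 3 stages, and the beta connexins 2.22% at E10.5, since fewer genes were summed. With the replicate block the count of members higher at E16.5 than in E14.5 corneas was 0, Gjb6 having an adjusted p of 0.060, and no other call changed. The pairing by replicate number was not borne out: deviations of same-numbered samples correlated at -0.33 to 0.302 (mean -0.035, 9 pairs) and those of other samples at -0.241 to 0.238 (mean 0.0199, 18 pairs). Added after seeing the data were the gene lists and the named genes outside the members without E14.5 sample 1. There the change of Ccn3 between the corneal stages turned from -0.09 to 0.16 and that of Cav1 from E10.5 to E14.5 from 0.49 to -0.032, none of them called, and Dsg3 was no longer called in E14.5 corneas against the pNC (log2 change 3.07, adjusted p = 0.050). At these depths Gja3 and Gjb5 were too low for a change of moderate size to be detectable.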
